A study of Mus with 6 samples.

Results

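The miR-17-92 cluster was measured by small RNA sequencing in mouse adipocytes, as 8 mature miRNAs from 6 hairpins: mmu-miR-17-5p, mmu-miR-17-3p, mmu-miR-18a-5p, mmu-miR-19a-3p, mmu-miR-20a-5p, mmu-miR-19b-3p, mmu-miR-92a-3p and mmu-miR-92a-1-5p, named below without the mouse prefix. The members were chosen by name, with earlier results of these data known, and all 8 were among the 929 known miRNA names shared by the 6 deposited tables. The series holds 3 libraries of adipocytes under chronic intermittent hypoxia (CIH), which mimics the cycling oxygen of sleep apnoea, and 3 control libraries. All 6 libraries come from cells labelled as adipocytes, wild type, on a C57BL/6 background. The labels do not say which animals or cultures the cells came from, nor how long the exposure lasted, so p-values below rest on library-to-library spread, part or all of which may be technical.

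The cluster is transcribed as 1 primary RNA, from which each hairpin is cut by the Drosha and Dicer nucleases into a guide strand that enters the silencing complex and a passenger strand that is mostly lost. It is known as an oncogenic cluster driven by Myc, and as a promoter of proliferation and of the clonal expansion of preadipocytes. Its members fall into 4 seed families, the seed being the stretch near the 5′ end that pairs with target mRNAs. miR-17 and miR-20a share 1 seed and are known to act on p21 and the Rb-like protein Rbl2, miR-18a has its own, miR-19a and miR-19b share another, and miR-92a shares its seed with miR-25, miR-32, miR-92b and miR-363. In the RefSeq annotation of GRCm38.p6 the 6 hairpins lie within 836 bp of chromosome 14, from 115043671 to 115044506, in the order Mir17, Mir18, Mir19a, Mir20a, Mir19b-1 and Mir92-1. The annotated host noncoding RNA Mir17hg runs from 115044390 to 115046728 and holds the whole of the Mir92-1 hairpin, with the other hairpins upstream of it or at its edge. miR-19b-3p and miR-92a-3p can also be cut from Mir19b-2 (chromosome X, 52741983 to 52742066) and Mir92-2 (chromosome X, 52741838 to 52741928) in the paralogous miR-106a-363 cluster. Reads of the 2 sources carry the same name in the tables, while the other 6 members have a single locus.

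Total counts were 7336758, 10042644 and 11264151 in CIH libraries 1, 2 and 3, and 6291101, 9720485 and 8259937 in control libraries 1, 2 and 3. Levels are given as CPM, counts scaled to a library total of 1e6 reads, and the floor of 3 reads lies at 0.266 to 0.477 CPM. The libraries numbered 3 stood apart in both groups. Pearson's r of log2 CPM across 471 miRNAs was 0.975 to 0.990 for libraries numbered 1 or 2 among themselves, and 0.917 to 0.933 where 1 of the 2 libraries was numbered 3. CIH library 3 and control library 3 correlated with each other at 0.921, so by this measure they were no more alike than with the rest. Their deviations from the group means were partly shared (r = 0.385). Each of them lists 1186 names, against 1053 in each of the other 4 libraries. One miRNA, miR-148a-3p, took 24.9% of CIH library 3 and 49.4% of control library 3, against 2.81% to 5.53% of the other 4 libraries, so CPM of every other miRNA are measured against different remainders there. Results are therefore given for all 6 libraries, for the libraries numbered 1 and 2, and for the pair numbered 3.

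The cluster had a low share of the libraries, and its members were very unequal in reads. Summed over 8 members it held 1491, 1439 and 573 CPM in CIH libraries 1, 2 and 3, and 1016, 967 and 650 CPM in control libraries 1, 2 and 3. By mean over 6 libraries the order was miR-92a-3p (405 CPM), miR-20a-5p (267), miR-19b-3p (176), miR-17-5p (129), miR-19a-3p (15.3), miR-17-3p (14.7), miR-18a-5p (14.0) and miR-92a-1-5p (2.29). miR-92a-3p, the most abundant member, ranked 77 and miR-92a-1-5p ranked 389 among the 929 names. The 4 abundant members stood well above the rest: miR-17-5p exceeded miR-19a-3p in 6 of 6 libraries, by 6.19 to 13.0 times. Within the upper group, miR-20a-5p exceeded miR-19b-3p in 6 of 6 libraries, whereas miR-92a-3p exceeded miR-20a-5p in 5 of 6 and miR-19b-3p exceeded miR-17-5p in 5 of 6. The order of miR-19a-3p, miR-17-3p and miR-18a-5p was not stable, each preceding the next in 3 of 6 libraries, so these 3 did not differ beyond their spread.

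**Figure D1:**
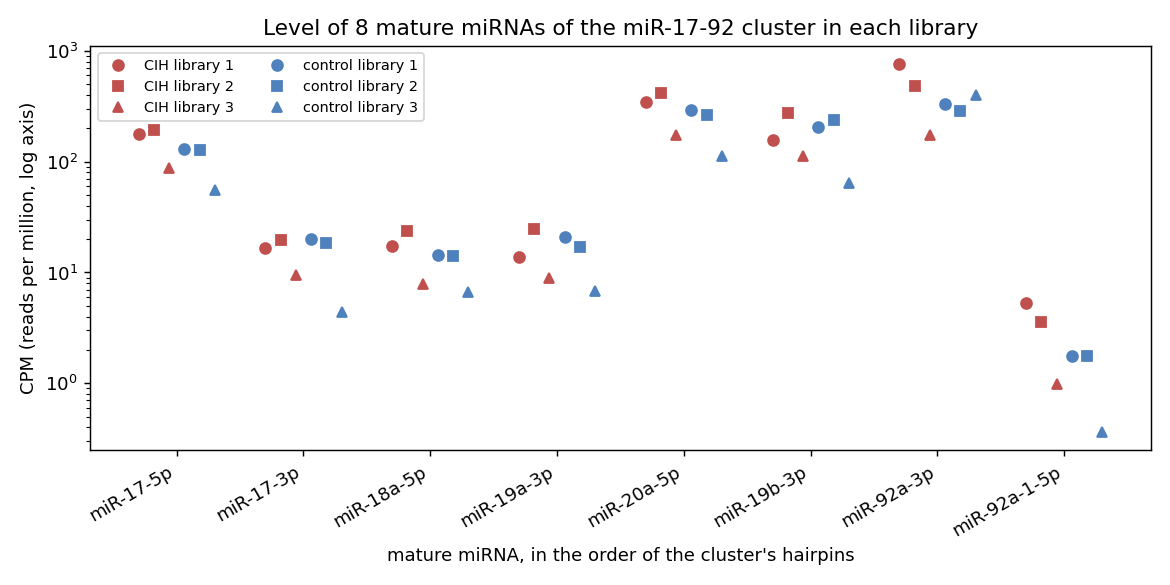
CPM on a log axis for each of the 8 mature miRNAs (x axis) in each library, with CIH in red to the left of control in blue and the library number given by the marker. miR-92a-3p reaches from 172 CPM in CIH library 3 to 755 CPM in CIH library 1, and the other 7 members are lower in the libraries numbered 3 than in those numbered 1 and 2.

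Some neighbouring hairpins of the same primary RNA differed sharply in their reads, and others less. miR-18a-5p gave 0.0887 to 0.124 reads per read of miR-17-5p, its neighbour upstream, over the 6 libraries. miR-20a-5p gave 14.0 to 25.1 reads per read of miR-19a-3p, whose hairpin lies next to it. Other neighbours were closer, with 0.802 to 1.44 reads of miR-19a-3p per read of miR-18a-5p. miR-19b-3p gave 0.456 to 0.906 reads per read of miR-20a-5p, and miR-92a-3p gave 1.21 to 6.27 per read of miR-19b-3p. The pair miR-19a-3p and miR-19b-3p share a seed and come from hairpins on either side of Mir20a, and miR-19b-3p, which has 2 loci, gave 9.41 to 14.1 reads per read of miR-19a-3p. Mature miRNAs are of nearly equal length, so no correction for length was made. Ratios between different miRNAs, here and below, compare reads. Whether different sequences were captured equally well was not tested.

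Ratios between members do not depend on how libraries are scaled, and several varied little from library to library, the libraries numbered 3 included. miR-17-5p, which shares its seed with miR-20a-5p, stood at 0.518, 0.465 and 0.506 reads per read of miR-20a-5p in CIH libraries 1, 2 and 3, and at 0.443, 0.490 and 0.488 in control libraries 1, 2 and 3. The highest of these 6 ratios was 1.17 times the lowest, with overlapping groups. miR-18a-5p stood at 0.0496, 0.0577 and 0.0449 reads per read of miR-20a-5p in CIH, and at 0.0497, 0.0533 and 0.0589 in control. These ratios also overlapped between the groups, and the highest was 1.31 times the lowest.

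miR-92a-3p did not keep step with the other abundant members. It stood at 2.18, 1.17 and 0.989 reads per read of miR-20a-5p in CIH libraries 1, 2 and 3, and at 1.14, 1.09 and 3.54 in control libraries 1, 2 and 3. CIH library 1 and control library 3 were the high ones, while the other 4 lay between 0.989 and 1.17. Relative to miR-20a-5p the log2 difference of CIH from control was 0.94 in the pair numbered 1, 0.10 in the pair numbered 2 and -1.84 in the pair numbered 3. In pair 2 miR-92a-3p and miR-20a-5p thus differed from control by nearly the same amount. The ratio of miR-92a-1-5p to miR-20a-5p also varied, the highest being 4.78 times the lowest, on 3 to 39 reads of miR-92a-1-5p.

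The SD of the log2 ratio over 6 libraries puts a number on this spread for members of at least 10 CPM, so without miR-92a-1-5p. For the 15 pairs among the 6 members of at least 10 CPM other than miR-92a-3p its median was 0.33 (0.083 to 0.42), and for the 6 pairs with miR-92a-3p it was 0.80 (0.67 to 1.01). Over all 32896 pairs of the 257 known miRNAs of at least 10 CPM the median was 1.04. The pair of miR-17-5p and miR-20a-5p had an SD below that of all but 0.0304% of these pairs, and for miR-17-3p and miR-92a-3p 47.7% of all pairs had a smaller SD. Members of 1 cluster share a primary RNA, and near-identical miRNAs can share reads, so these pairs are not independent and no test was made.

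**Figure D2:**
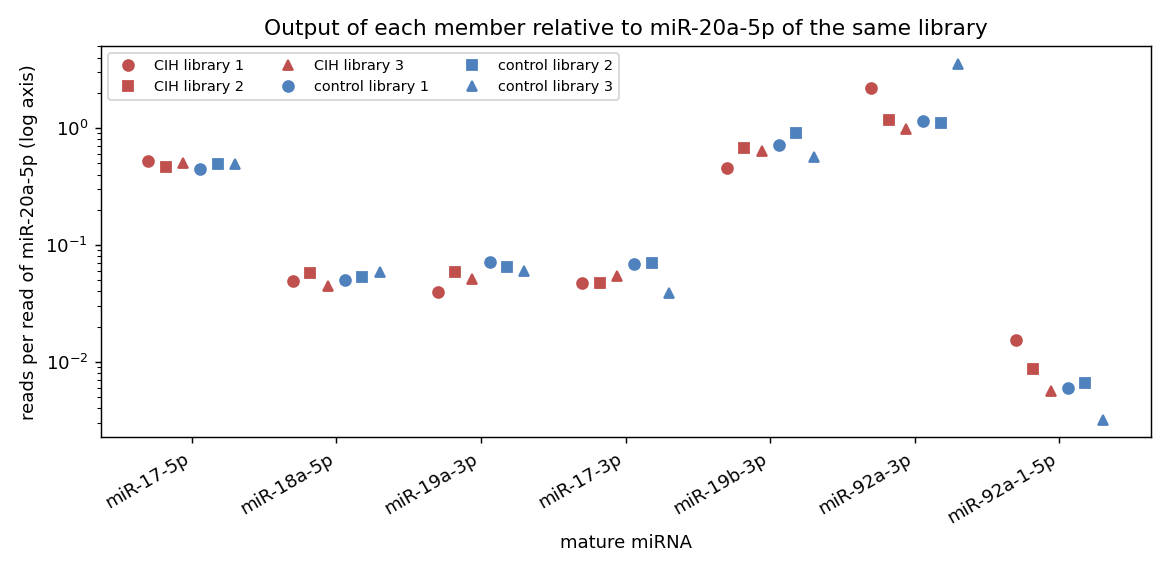
Reads of each member per read of miR-20a-5p in the same library, on a log axis, with CIH libraries in red to the left of control libraries in blue. miR-17-5p lies between 0.443 and 0.518 in all 6 libraries, while miR-92a-3p reaches 2.18 in CIH library 1 and 3.54 in control library 3.

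Relative to miR-20a-5p, miR-19a-3p was lower in every CIH library, at 0.0398, 0.0592 and 0.0510 reads, against 0.0715, 0.0643 and 0.0600 reads in control libraries 1, 2 and 3. The groups did not overlap, but CIH library 2 and control library 3 lay close together, on 246 and 56 reads of miR-19a-3p. miR-19b-3p per read of miR-20a-5p stood at 0.456, 0.668 and 0.640 in CIH and at 0.713, 0.906 and 0.564 in control, so its groups overlapped. The miR-19a-3p ratio was singled out after its values were seen and was not tested.

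The comparison of CIH with control in all 6 libraries asks whether cluster members differ with the exposure. Of 456 miRNAs, 0 (0%) were called by the quasi-likelihood test of edgeR, although 23 had an unadjusted p under 0.05, and 0 were called by DESeq2, where 37 had one. All 8 members passed the filter on low counts and none was called, with adjusted p of 0.885 to 0.988. Their log2 differences were above 0 for 8 of 8, though miR-19a-3p was below 0 with DESeq2 size factors, with DESeq2 and in the fit blocked by replicate number. Without CIH library 2 the count above 0 was 4 of 8, without control library 3 it was 5 of 8, and without CIH library 1 or control library 2 it was 7 of 8. The members' median was 0.31 beside 0.04 over all miRNAs tested, of which 53.5% were above 0. miR-17-5p averaged 153 ± 56.8 CPM in CIH libraries against 104 ± 42.4 CPM in control libraries (SD, n = 3 each), or 0.50 on the log2 scale (SE 0.49). miR-20a-5p averaged 311 ± 124 CPM in CIH libraries against 222 ± 95.6 CPM in control libraries (SD, n = 3 each), or 0.45 (SE 0.49). The CPM ranges of the groups overlapped for all 8 members, where 11.2% of the miRNAs tested had ranges that did not. Within the pairs of equal number, 4 of 8 members had higher CPM in CIH in all 3 pairs: miR-17-5p, miR-18a-5p, miR-20a-5p and miR-92a-1-5p. After TMM scaling of pair 3 miR-92a-1-5p alone of these was still higher in CIH there (0.37 on the log2 scale, on 11 reads in CIH library 3 and 3 in control library 3). miR-92a-1-5p, the passenger strand of Mir92-1, had the log2 difference farthest from 0, at 1.32 (SE 0.75, adjusted p = 0.885 by edgeR's quasi-likelihood test).

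Within the libraries numbered 1 and 2, a set chosen with earlier results of these data known, both strands from miR-92a were higher in CIH. miR-92a-3p stood at 755 and 485 CPM in CIH libraries 1 and 2, and at 332 and 287 CPM in control libraries 1 and 2. The groups did not overlap, and the log2 difference was 1.13 (SE 0.22, edgeR adjusted p = 0.000694). miR-92a-1-5p stood at 5.32 and 3.58 CPM in CIH, and at 1.75 and 1.75 CPM in control, on 39, 36, 11 and 17 reads. Its log2 difference was 1.45 (SE 0.47, edgeR adjusted p = 0.0484), and the call was lost with the replicate number as a block (adjusted p = 0.0540), with DESeq2 (0.232), with library totals as the scaling (0.186) and with no filter on low counts (0.0860). With DESeq2 size factors in edgeR it was kept (0.0473). miR-92a-3p kept its call under all 6 of the other scalings, filters, models and tests tried, with adjusted p of 7.07e-05 to 0.0260. With only 1 control library left, its adjusted p was 0.0585 without control library 1 and 0.0636 without control library 2, at log2 differences of 1.16 and 1.15. For miR-92a-1-5p the adjusted p was 0.159 without CIH library 1, 0.371 without control library 1 and 0.292 without control library 2.

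The other guide strands of the cluster did not pass in this set. miR-17-5p stood at 179 and 192 CPM in CIH libraries 1 and 2, and at 129 and 128 CPM in control libraries 1 and 2 (log2 difference 0.69, SE 0.24, edgeR adjusted p = 0.0705). miR-20a-5p stood at 346 and 414 CPM in CIH, and at 291 and 262 CPM in control (0.62, SE 0.23, edgeR adjusted p = 0.0886). These 2 had a p under the threshold without CIH library 1, with adjusted p of 0.0250 and 0.0206. miR-18a-5p stood at 17.2 and 23.9 CPM in CIH and at 14.5 and 14.0 CPM in control (0.71, SE 0.35, edgeR adjusted p = 0.231). For these 3 the higher values were those of CIH, without overlap.

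The miR-19 members and the passenger strand of miR-17 gave smaller values. miR-19a-3p stood at 13.8 and 24.5 CPM in CIH libraries 1 and 2, and at 20.8 and 16.9 CPM in control (log2 difference 0.22, SE 0.36). miR-19b-3p stood at 158 and 276 CPM in CIH and at 207 and 238 CPM in control (0.15, SE 0.33). miR-17-3p stood at 16.5 and 19.6 CPM in CIH and at 19.9 and 18.4 CPM in control (0.08, SE 0.33). For these 3 the groups overlapped, edgeR's adjusted p ran from 0.761 to 0.908, and miR-17-3p and miR-19b-3p were at -0.08 and -0.04 with library totals as the scaling.

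Over the members, 2 of 8 were called higher and 0 lower in the libraries numbered 1 and 2, where 19 of 459 miRNAs (4.14%) were called higher and 24 (5.23%) lower. The members' median log2 difference was 0.66 and that of all miRNAs -0.03. Ranges were apart for 5 of 8 members, all with CIH higher, where 17.4% of the miRNAs tested had CIH above control without overlap. With library totals in place of TMM the overall median became -0.17 and 7 miRNAs were called higher and 27 lower, while 6 of 8 members were above 0 and 1 was called.

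**Figure D3:**
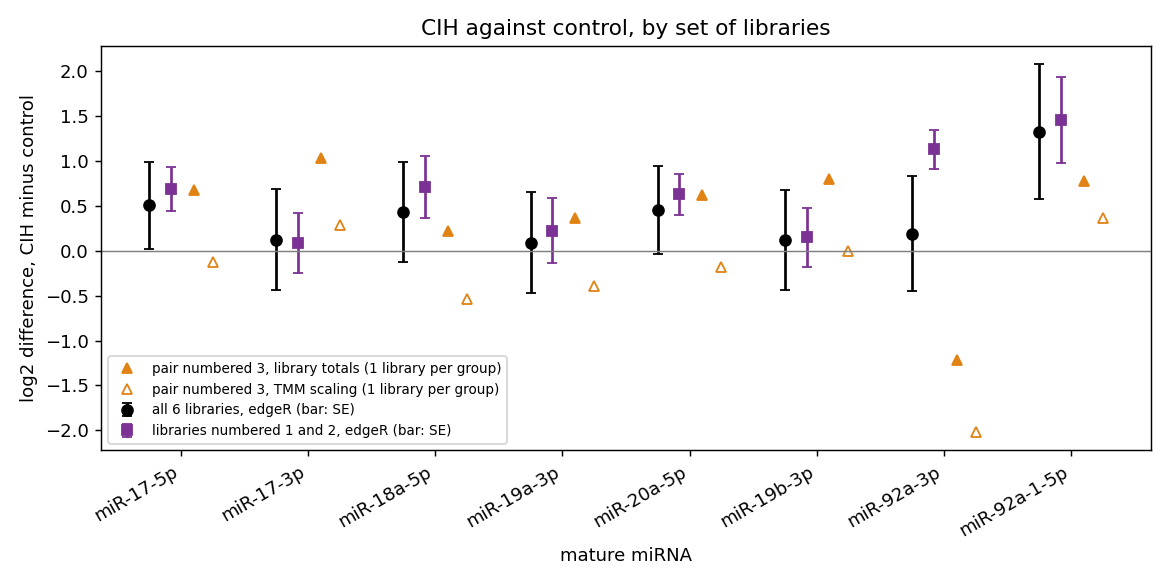
Log2 difference of CIH from control for each member (x axis) from edgeR in all 6 libraries and in the libraries numbered 1 and 2 (bars are SE), with the pair numbered 3 as triangles without error, filled for library totals and open after TMM scaling. miR-92a-3p is at 1.13 in the libraries numbered 1 and 2 and at -1.21 or -2.02 in the pair numbered 3.

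Pair 3 holds a single library of each group, so its differences have no error. There 7 of 8 members had higher CPM in CIH. miR-17-5p stood at 88.1 CPM in CIH library 3 and at 55.2 CPM in control library 3. For miR-20a-5p it was 174 CPM in CIH against 113 CPM in control, and for miR-19b-3p 111 CPM in CIH against 63.8 CPM in control. These 3 abundant guide strands were thus all higher in CIH by CPM. miR-17-3p had 9.41 CPM in CIH against 4.36 CPM in control. miR-18a-5p had 7.81 CPM in CIH against 6.66 CPM in control, and miR-19a-3p 8.88 CPM in CIH against 6.78 CPM in control. miR-92a-3p was the exception, at 172 CPM in CIH library 3 and 400 CPM in control library 3. All miRNAs tested had a median log2 difference of 0.74 in this pair, so the members' median of 0.64 does not stand above it.

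TMM scaling, a trimmed mean of ratios, moved that overall median to 0.05. After it the members' median was -0.16 and 3 of 8 were above 0. miR-17-5p was at -0.13, miR-20a-5p at -0.18, miR-19a-3p at -0.39 and miR-18a-5p at -0.54, so the direction of these 4 in pair 3 depends on the scaling. Among those above 0, miR-19b-3p went from 0.80 with library totals to 0.0002, which is no difference. miR-92a-3p was lower under both, at -1.21 with library totals and -2.02 after TMM. Between pair 3 and the libraries numbered 1 and 2 the log2 difference of miR-92a-3p changed by -3.15, or by -2.22 with library totals. The fit of this interaction of group and library set has 1 library per group in pair 3, so it borrows its spread from the libraries numbered 1 and 2. Since the libraries numbered 3 were less alike than the others, that spread may be too small, and no p is given for a member. By this fit 138 of 456 miRNAs (30.3%) passed the threshold, and 1 of 8 members, miR-92a-3p. Fitted among miRNAs of at least 10 CPM, the interaction was below 0 for all 7 members. It ran from -3.59 (miR-92a-3p) to -0.21 (miR-17-3p), with miR-17-5p at -1.25, miR-18a-5p at -1.71 and miR-20a-5p at -1.24. The median over all 257 miRNAs in that fit was -0.28.

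The libraries numbered 3 were also set against the libraries numbered 1 and 2, with group in the model. This split was chosen with earlier results of these data known. The fit describes how far members differ between the sets and is no test of the split. All 8 members had a log2 difference below 0 with TMM, miR-92a-3p being at 0.16 with DESeq2 size factors, and their median was -0.89 beside -0.11 over all miRNAs. Those called were miR-17-3p at -1.16 (SE 0.34, edgeR adjusted p = 0.0482) and miR-92a-1-5p at -1.93 (SE 0.51, edgeR adjusted p = 0.0359), where 114 of 456 miRNAs (25%) were called, 52 higher and 62 (13.6%) lower. With library totals 17 were higher and 43 lower, and with DESeq2 size factors 59 were higher and 47 lower. The call of miR-17-3p was lost with library totals (edgeR adjusted p = 0.0734), with DESeq2 size factors (0.0736) and with no filter on low counts (0.0743), and that of miR-92a-1-5p with DESeq2 size factors (0.0527). The values also turned on single libraries. Without control library 3 the 8 members ran from -2.22 (miR-92a-1-5p) to -1.03 (miR-17-3p), beside a median of -0.26 over all miRNAs. Without CIH library 3 miR-92a-3p was above 0, and the others ran from -1.32 (miR-92a-1-5p) to -0.16 (miR-18a-5p), beside a median of -0.10. In these fits 1 library numbered 3 was left and was assumed to vary like the others. Leaving out 1 library other than control library 3 or, for miR-17-3p, CIH library 3 ended the calls of the full set, with adjusted p of 0.0742 to 0.167 for miR-17-3p and 0.104 to 0.254 for miR-92a-1-5p. miR-92a-3p gave -0.04 (SE 0.74), with 1.31 without CIH library 3 and -1.90 without control library 3, so the value of this set rests on the single library kept.

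The 5p strand of the miR-17 hairpin had more reads than the 3p strand in all 6 libraries. The ratio of miR-17-5p to miR-17-3p was 10.9, 9.80 and 9.36 in CIH libraries 1, 2 and 3, and 6.49, 6.98 and 12.7 in control libraries 1, 2 and 3. In the libraries numbered 1 and 2 the CIH ratios were the higher ones, without overlap, and the exact 95% counting intervals, 9.02 to 13.2 and 8.46 to 11.4 in CIH against 5.37 to 7.90 and 5.96 to 8.21 in control, did not overlap either. In pair 3 the ratio was lower in CIH, with intervals that overlapped (7.65 to 11.5 in CIH and 9.01 to 18.3 in control). Over 6 libraries the log2 ratio averaged 3.32 ± 0.11 in CIH and 3.05 ± 0.52 in control (SD, n = 3 each), a difference of 0.27 (exact permutation test, two-sided p = 0.4, or 0.4 adjusted over the 2 arm ratios). The smallest p that 3 libraries against 3 allow is 0.1. Without control library 3 the difference was 0.57 (exact permutation p = 0.2).

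miR-92a-3p outnumbered miR-92a-1-5p by far more. The ratio was 142.1, 135.3 and 176 in CIH libraries 1, 2 and 3, and 190, 164 and 1102 in control libraries 1, 2 and 3. Control library 3 had the high value, on 3306 reads of miR-92a-3p and 3 reads of miR-92a-1-5p, with a counting interval of 377 to 5346, and the intervals of the other 5 libraries overlapped one another. The log2 ratio averaged 7.20 ± 0.18 in CIH and 8.23 ± 1.43 in control (SD, n = 3 each), a difference of -1.04 (exact permutation test, two-sided p = 0.2, or 0.4 adjusted over the 2 arm ratios). Without control library 3 it was -0.21 (exact permutation p = 0.4). The counting intervals treat reads as independent and cover counting error only. Since miR-92a-3p can come from 2 hairpins and miR-92a-1-5p from 1, this ratio is not that of a single hairpin.

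**Figure D4:**
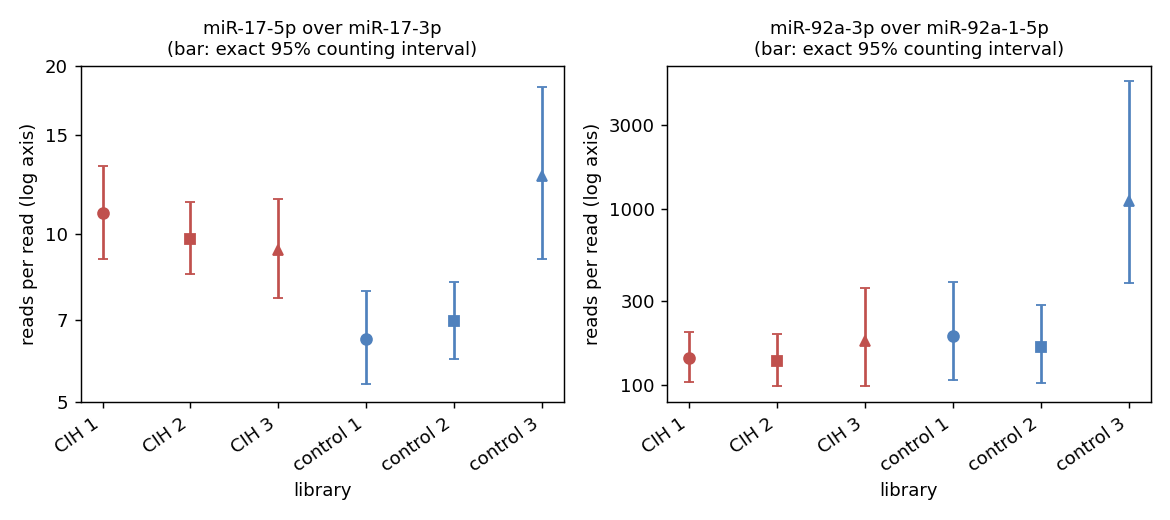
Reads of miR-17-5p per read of miR-17-3p (left) and of miR-92a-3p per read of miR-92a-1-5p (right) in each library, on log axes, CIH in red to the left of control in blue, with exact 95% counting intervals as bars. The miR-17 ratios of CIH libraries 1 and 2 (10.9 and 9.80) lie above those of control libraries 1 and 2 (6.49 and 6.98), and control library 3 is the highest point in both panels.

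The remaining arms of the hairpins were barely detected. Of 4 such names 3 stood in all 6 tables, each with a mean of at most 1.08 CPM. miR-18a-5p outnumbered miR-18a-3p by 12.6, 12 and 11 times in CIH and by 13, 17 and 13.8 times in control, on 4 to 20 reads of miR-18a-3p. For the 137 hairpins with both arms named and at least 600 reads over the 6 libraries, the median absolute log2 ratio of the arms was 5.05, beside 3.18 for miR-17 and 7.72 for miR-92a-1. Their median absolute difference of CIH from control was 0.39, beside 0.27 for miR-17 and 1.04 for miR-92a-1. How many of them had ratios without overlap in the libraries numbered 1 and 2 was not counted.

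The paralogous miR-106a-363 cluster was close to undetected. Of its 10 names, miR-20b-5p and miR-363-3p stood in all 6 tables, and they summed to 1.23, 1.29 and 0.266 CPM in CIH libraries 1, 2 and 3, and to 3.97, 0.514 and 0 CPM in control libraries 1, 2 and 3. miR-106a-5p was listed for the libraries numbered 3 alone, at 0 reads in each. In control library 3, where miR-92a-3p outran its neighbours, miR-20b-5p and miR-363-3p were thus both at 0 reads (3 reads would be 0.363 CPM). miR-92a-2-5p, the other arm of Mir92-2, was not listed for any library. From which locus the miR-92a-3p reads came was not tested.

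The other paralogous cluster, miR-106b-25 in Mcm7 on chromosome 5, summed to 1501, 1378 and 2850 CPM in CIH libraries 1, 2 and 3, and to 1650, 1499 and 1809 CPM in control libraries 1, 2 and 3. These sums were close to those of miR-17-92 in CIH libraries 1 and 2 and higher in the other 4 libraries. All 6 of its names were tested, and 0 were called in either direction in all 6 libraries or in the libraries numbered 1 and 2. Its miR-93-5p and miR-106b-5p share the seed of miR-17-5p and miR-20a-5p. miR-93-5p stood at 603, 695 and 352 CPM in CIH libraries 1, 2 and 3, against 772, 782 and 209 CPM in the control libraries of the same numbers. miR-106b-5p stood at 119, 132 and 119 CPM in CIH and at 198, 162 and 56.2 CPM in control. In the libraries numbered 1 and 2 the log2 differences were -0.10 (SE 0.22) for miR-93-5p and -0.35 (SE 0.24) for miR-106b-5p, with edgeR adjusted p of 0.838 and 0.452, beside 0.69 and 0.62 for miR-17-5p and miR-20a-5p.

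Within this seed family the cluster's pair summed to 525, 606 and 262 CPM in CIH libraries 1, 2 and 3, and to 420, 391 and 168 CPM in control libraries 1, 2 and 3. The members from other loci summed to 722, 827 and 472 CPM in CIH and to 970, 945 and 265 CPM in control. The cluster thus gave 40.0% ± 3.75 of the family's reads in CIH and 32.8% ± 5.25 in control (SD, n = 3 each), with overlapping ranges, since the share in pair 3 was lower in CIH.

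The miR-92 seed family was divided differently in each set of libraries. miR-25-3p, from miR-106b-25, stood at 562, 401 and 2021 CPM in CIH libraries 1, 2 and 3, and at 532, 384 and 986 CPM in control libraries 1, 2 and 3, highest in the libraries numbered 3. miR-32-5p stood at 62.0, 72.9 and 32.6 CPM in CIH and at 69.3, 76.4 and 49.5 CPM in control. miR-92a-3p gave 54.4%, 50.3% and 7.72% of the family's reads in CIH libraries 1, 2 and 3, and 35.3%, 38.3% and 27.9% in control libraries 1, 2 and 3. The share was thus higher in CIH in pairs 1 and 2 and lower in pair 3, which the means of 37.5% ± 25.9 in CIH and 33.8% ± 5.37 in control (SD, n = 3 each) do not show. Within miR-106b-25, miR-93-5p per read of miR-25-3p ran from 0.174 to 2.04, the highest 11.7 times the lowest, while for miR-106b-5p per read of miR-93-5p the highest was 1.78 times the lowest. Within miR-17-92 the same quantity was 1.17 for miR-17-5p, 1.99 for miR-19b-3p and 3.58 for miR-92a-3p, each per read of miR-20a-5p. For miR-92a-1-5p, on few reads, it was 4.78.

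**Figure D5:**
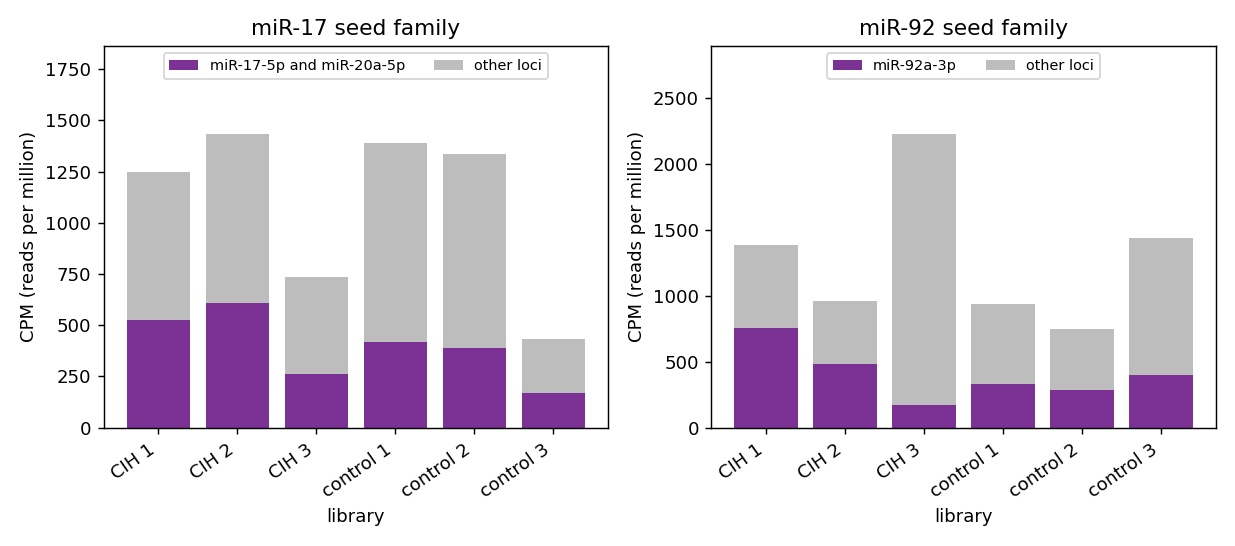
Stacked CPM of the miR-17 seed family (left) and the miR-92 seed family (right) in each library, CIH libraries to the left of control libraries, with miR-17-92 members in purple and members from other loci in grey. The grey part of the miR-92 family is highest in CIH library 3, where miR-25-3p alone stands at 2021 CPM.

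miRNAs that mark other cell types were compared with the cluster, since miR-17-92 is known from lymphocytes and miR-92a from erythroid and endothelial cells. The 6 miRNAs taken for adipocytes were all listed and summed to 67480 to 146223 CPM in CIH and to 103609 to 186590 CPM in control, most of it miR-143-3p, which stromal cells also carry. The 4 leukocyte miRNAs, all listed, summed to 0.266 to 3.27 CPM in CIH and to 0.363 to 4.29 CPM in control, with miR-142a-3p at 0 in 2 of 3 CIH and 2 of 3 control libraries. The 4 erythroid miRNAs, all listed, summed to 136, 60.3 and 21.0 CPM in CIH libraries 1, 2 and 3, and to 154, 63.7 and 54.8 CPM in control libraries 1, 2 and 3. Among them miR-451a stood at 105.9, 43.9 and 3.20 CPM in CIH and at 129, 48.0 and 8.35 CPM in control, lower in CIH in each numbered pair. miR-486a-5p stood at 29.3, 16.2 and 17.7 CPM in CIH and at 24.5, 15.1 and 46.5 CPM in control, higher in CIH in pairs 1 and 2 and lower in pair 3, as miR-92a-3p was. The other two, miR-144-3p and miR-144-5p, were at most 0.545 CPM in any library. The 2 endothelial miRNAs summed to 73.1 to 104 CPM in CIH and to 33.8 to 137 CPM in control, and the 6 epithelial ones to 169, 125 and 18.6 CPM in CIH libraries 1, 2 and 3, and to 407, 334 and 76.3 CPM in control libraries 1, 2 and 3. The epithelial and adipocyte sums were lower in CIH in all 3 pairs, but not every miRNA in them was. In pair 3 the epithelial miR-200a-3p, miR-200b-3p, miR-200c-3p and miR-203-3p stood at 7.09, 4.12, 5.32 and 1.13 times their control level. Control library 3 had as few as 3 reads of these. miR-205-5p made up 67.8 of the 76.3 CPM in control library 3 and fell to 1.86 CPM in CIH library 3. The adipocyte miR-335-5p was 2.41 times its control level in pair 3. Muscle miRNAs peaked in control library 3, with a sum of 111 CPM, 92.4 of it miR-1a-3p, against 29.3 CPM in CIH library 3. Under CIH the muscle sum was 38.7 CPM in library 1 and 11.6 CPM in library 2, beside control values of 33.4 and 12.6 CPM. miR-133a-3p, on 2 to 34 reads, exceeded control under CIH in pairs 1 and 2 but not in pair 3. Whether the muscle peak bears on miR-92a-3p was not tested. The hepatocyte miRNA was at most 5.59 CPM in any library. The adipocyte, erythroid, leukocyte and epithelial sums were each lower in library 3 than in libraries 1 and 2 of the same group, as the cluster's sum was, and their part in its levels was not tested. In bulk libraries, fewer cells of a type and less RNA per cell cannot be told apart.

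Some miRNAs from other loci followed a similar course over the 6 libraries. Likeness was measured as the root mean square difference, in log2 units, between each centred profile and the mean profile of miR-17-5p, miR-18a-5p, miR-19a-3p and miR-20a-5p. Of 250 miRNAs outside the cluster, the closest were miR-217-5p (0.20), miR-484 (0.21), miR-194-5p (0.24), miR-132-3p (0.26) and miR-296-3p (0.27). miR-217-5p stood at 18.8, 17.5 and 6.21 CPM in CIH libraries 1, 2 and 3, and at 12.4, 11.1 and 4.601 CPM in control libraries 1, 2 and 3. miR-194-5p was not higher in CIH in the libraries numbered 1 and 2, at 154 and 159 CPM against 163 and 159 CPM in control. The other closest miRNAs were higher in CIH there, miR-484 by little in pair 1 (187 CPM against 183 CPM in control). Among members the value was 0.27 for miR-19b-3p, 0.28 for miR-17-3p and 0.66 for miR-92a-3p, which ranked 97 of 257. The reference profile is made of 4 members, so their own closeness to it says nothing, and a low value reflects in large part the lower level in the libraries numbered 3.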

How the data were processed

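The deposited tables, 1 per library, give read counts for each mature miRNA as whole numbers, which the authors left without normalization. The headers of 3 tables say FPKM, but their values are whole and their totals differ between libraries, so they were read as counts. Per the submitters' processing notes, featureCounts 1.5.0-p3, DESeq 1.8.3 and GRCm38 were used, with no role given. The sources used here do not give the trimming, the aligner, the miRBase release or the handling of reads that fit several miRNAs, so members with near-identical sequences may share reads. Of the names, 929 known ones stand in all 6 tables, and they hold 99.97% or more of each library.

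CPM are counts over the whole library total. Tests used the quasi-likelihood F test in edgeR 4.0.16 (robust, TMM, default filterByExpr) under R 4.3.3, fitted on all miRNAs that passed the filter, with Benjamini-Hochberg adjustment at 0.05. The fits were group alone in 6 libraries, group alone in the libraries numbered 1 and 2, library set beside group, and their interaction. The scripts were tested on simulated counts. Arm ratios, with 0.5 reads added, went through an exact permutation test (two-sided). The alternatives were DESeq2 1.42.0, other scalings and filters, the replicate number as a block and leaving out each library. TMM for the pair numbered 3 was added after the data were examined. All 8 members were named, related loci by fixed lists with values mainly for those of at least 10 CPM, and the 5 miRNAs outside the cluster closest in profile. Members and lists were chosen with earlier results of these data known.

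Libraries of equal number deviated together from their group means (r = 0.288, 0.330 and 0.385 across 471 miRNAs), so numbers were taken as pairs in the blocked fit. CIH library 2 correlated more closely with control library 1 (0.392). Libraries of a group differed by more than counting noise (their chi-square was at least 135 times its degrees of freedom), and each was counted as 1 replicate. Floors and intervals cover counting error only, and no molecular identifiers are named in the sources used here. Positions are from RefSeq genes of GRCm38.p6.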

Additional observations from a re-analysis of the deposited data

Results flagged for a closer look

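For miR-92a-3p the difference of CIH from control in the pair numbered 3 departed from that in the libraries numbered 1 and 2 by -3.15 on the log2 scale. CIH was higher in both pairs of the libraries numbered 1 and 2 and lower in the pair numbered 3. The levels behind it were 172 CPM in CIH library 3 and 400 CPM in control library 3, and 755 and 485 CPM in CIH libraries 1 and 2, against 332 and 287 CPM in control libraries 1 and 2. The pair numbered 3 has 1 library per group, so the fit of this interaction takes its spread from the libraries numbered 1 and 2. It assumes that the libraries numbered 3 vary likewise, although these correlated at 0.921 with each other against 0.975 to 0.990 among the others, so no p is given. By that fit 138 of 456 miRNAs (30.3%) passed the threshold.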

How the results depend on the processing

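In all 6 libraries 0 miRNAs were called under every alternative. There miR-19a-3p changed sign, at -0.025 with DESeq2 size factors, -0.025 with DESeq2 and -0.058 with the replicate block. In the libraries numbered 1 and 2 the count of 43 became 16 among miRNAs of at least 10 CPM and 48 with the replicate block, which ended the call of miR-92a-1-5p and changed no other call of a member. With library totals miR-17-3p was at -0.082 and miR-19b-3p at -0.036 there. For the library set the count of 114 was 60 with library totals, where 17 were higher and 43 lower against 52 and 62 with TMM, and miR-92a-3p was at 0.16 with DESeq2 size factors. The interaction changed sign with library totals for miR-17-5p (0.14), miR-19a-3p (0.36), miR-19b-3p (0.84), miR-20a-5p (0.16) and miR-92a-1-5p (0.060), for miR-17-3p at a minimum of 10 CPM (-0.21) and for miR-19b-3p with no filter (0.030). In the pair numbered 3 TMM turned miR-17-5p to -0.13, miR-18a-5p to -0.54, miR-19a-3p to -0.39 and miR-20a-5p to -0.18. The causes were not tested.

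Leaving out 1 library gave 9 calls (without control library 2) to 97 (without CIH library 2) in the libraries numbered 1 and 2, and 2 (without CIH library 2 or control library 1) to 253 (without control library 3) for the library set. In all 6 libraries the members that changed sign ran from -0.23 to 0.40 (miR-17-3p), -0.092 to 0.78 (miR-18a-5p), -0.53 to 0.40 (miR-19a-3p), -0.45 to 0.41 (miR-19b-3p) and -0.14 to 0.74 (miR-92a-3p). In the libraries numbered 1 and 2 they ran from -0.18 to 0.32 (miR-17-3p), -0.41 to 0.67 (miR-19a-3p) and -0.48 to 0.59 (miR-19b-3p), and for the library set from -1.90 to 1.31 (miR-92a-3p). A library left alone in its group is assumed to vary like the others. The arm ratio differences kept their sign under all alternatives, with the replicate block too (0.27 for miR-17 and -1.04 for miR-92a). Low depth limits miR-92a-1-5p, on 3 to 39 reads.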
